A study of Daphnia magna with 30 samples.

Results

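The transcripts described here are the 100 array probes whose levels followed most closely those of DM00375P2, a probe that the study annotates as vitellogenin fused with superoxide dismutase, between single animals of *Daphnia magna* kept under the same photoperiod. The 100 were chosen from 8835 probes that were well above background on all 30 arrays, out of 14338 probes on the array. For each probe the photoperiod mean was subtracted, and the 100 probes with the highest Pearson r with DM00375P2 over the 30 animals were kept. DM00375P2 itself and DM03120P2, annotated as a putative chitin deacetylase, were left out, as were 4103 probes with a higher r with DM03120P2 than with DM00375P2, which left 4730 to choose from. None of the probes left out for that reason had an r above the limit, so the exclusion removed no candidate.

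All arrays are from trial 1 of the study, and its later repeat trial was not used here. The paper reports that differences between the trials dominated expression when both were combined. The animals were whole adult females of a single laboratory clone, 21 days old, reared at 25 °C. They had been kept from hatching under a fixed day length, named by its hours of light (L) and darkness (D). The shortest day was 4L:20D, then came 8L:16D, 12L:12D with day and night equal, 16L:8D as the control of the study, and 20L:4D as the longest. Of the 3 chambers per photoperiod, animals A and B of each were put on an array of their own, so a photoperiod has 6 arrays, and 1A below is animal A of chamber 1. Any eggs and young in the brood pouch were part of the sample. Since all chambers of a photoperiod shared 1 light-proof box, the effects of day length and of the box cannot be told apart.

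Vitellogenin is the precursor of yolk protein. In *Daphnia*, as in other egg-laying animals, it is made in large amounts while a clutch of eggs is provisioned and is taken up by the growing oocytes, and in *Daphnia magna* vitellogenin genes are known that also code for a superoxide dismutase-like domain. An adult female repeats a cycle of yolk deposition, egg laying into the brood pouch, embryo development, release of the young and moult, so animals of equal age can differ in the stage they have reached. Chitin deacetylase acts on the chitin of the cuticle, which is rebuilt at each moult.

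Both its sequence and its levels bear on the annotation of DM00375P2, and the sequences of the probes are shown here because the choice of all 100 transcripts rests on that 1 probe. The set is DM00375P2, the other probe annotated as vitellogenin fused with superoxide dismutase (DM01555P3), and the 4 chosen transcripts with a sequence in the study's table. Each is the 50-base probe, 5′ to 3′, and the capitals in DM00375P2 mark positions 1 to 21, counted from the 5′ end.
DM00375P2: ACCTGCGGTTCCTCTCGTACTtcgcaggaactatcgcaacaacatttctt
DM01555P3: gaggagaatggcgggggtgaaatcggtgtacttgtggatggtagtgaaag
DM07717P2: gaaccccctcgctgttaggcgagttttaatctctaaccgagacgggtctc
DM11650P2: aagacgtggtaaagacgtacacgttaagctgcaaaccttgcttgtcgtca
DM11374P2: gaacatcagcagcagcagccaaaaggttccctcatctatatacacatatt
DM08481P1: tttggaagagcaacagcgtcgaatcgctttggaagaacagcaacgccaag

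The capital stretch of DM00375P2, read on the other strand, is AGTACGAGAGGAACCGCAGGT. As background, this order of bases is that of the sarcin-ricin loop of the large ribosomal RNA, a stretch that is nearly the same in all eukaryotes. Which RNA the probe measured was not tested, since no ribosomal or vitellogenin sequence of *Daphnia magna* was used here. Among the other 952 probes with a sequence in that table, 0 shared a run of 12 bases with DM00375P2 on either strand, and the longest run it shared with any of the 5 other sequences above was 6 bases.

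DM01555P3, the other probe with the same annotation, did not follow DM00375P2. Its r with DM00375P2 was 0.32 over the 30 animals, which placed it 1861st among the probes. Levels are given throughout on the log2 scale relative to the 75th percentile of the array, so that 0 is a signal equal to that percentile. DM00375P2 lay between 0.61 and 2.66 over all animals, and its SD between animals of 1 photoperiod was 0.37. DM01555P3 lay between -3.95 and 0.51, with an SD of 1.37. The 100 transcripts had a median r of 0.16 with DM01555P3, from -0.27 to 0.66, against a median r of 0.69 with DM00375P2. Their r with DM03120P2 was negative for 99 of the 100, with a median of -0.38, and that of DM00375P2 with DM03120P2 was -0.40. Probes chosen to follow DM00375P2 tend to share that sign, and DM03120P2 was part of the rule, so the count of 99 is a description only. Since DM01555P3 did not follow DM00375P2 closely over the 30 animals, the 100 are called here by the probe they follow. Whether they vary with the reproductive cycle was not tested.

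The rule fixed the high r of the 100 transcripts, so r is given as a description. It ran from 0.66 to 0.95, with a median of 0.69, against a median of 0.05 over all 8835 probes. A single transcript stood close to DM00375P2: DM07717P2, which the study lists as a hypothetical protein, had an r of 0.95 and a slope of 0.97, so that it differed between animals by about the same amount as DM00375P2. DM02636P2 came next with an r of 0.86, and the third, DM01677P2, was at 0.79. The limit itself separated near-equal values. The last 3 inside it were DM04141P1 at 0.6561, DM01589P2 at 0.6560 and DM06482P3 at 0.6555, and the first 3 outside it were DM10796P3 at 0.6552, DM09854P1 at 0.6551 and DM07787P3 at 0.6549. In the opposite direction, 14 probes had an r below the negative of the limit, and the lowest r was -0.77.

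DM00375P2 had its lowest levels under 4L:20D and its highest under 8L:16D. Under 4L:20D its level was 0.61 in the lowest animal, 1.27 in the median and 1.501 in the highest. The 8L:16D animals had 1.46, 2.26 and 2.66 as lowest, median and highest, the 12L:12D animals 1.31, 1.58 and 1.84, the 16L:8D animals 1.60, 1.87 and 2.06, and the 20L:4D animals 1.24, 1.84 and 2.52. All 6 animals of 4L:20D thus lay below all 6 of 16L:8D, whereas the other 3 photoperiods overlapped 16L:8D. DM07717P2 had the same order of photoperiods by their medians. Its lowest, median and highest levels were 0.30, 1.19 and 1.35 under 4L:20D, 1.26, 2.08 and 2.42 under 8L:16D, 1.26, 1.31 and 1.57 under 12L:12D, 1.48, 1.58 and 1.86 under 16L:8D, and 0.98, 1.55 and 2.28 under 20L:4D. The 4L:20D animals again lay below all those of 16L:8D. The share of all probes with these groups apart was not counted, so such separations, here and below, are descriptions only.

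DM02636P2, for which no name was found, differed from these in its spread. Under 4L:20D it lay within 2.61 to 2.86, with an SD of 0.11 over the 6 animals, while under 8L:16D it ranged from 2.85 to 4.07 with an SD of 0.53. Under 16L:8D its 6 values lay between 3.01 and 3.52, above all those of 4L:20D. DM01555P3 spanned most of its range within every photoperiod. Its lowest, median and highest levels were -3.45, -2.56 and -0.75 under 4L:20D, -3.95, -2.49 and 0.05 under 8L:16D, -3.55, -2.61 and 0.48 under 12L:12D, -2.67, -0.98 and -0.05 under 16L:8D, and -2.61, -1.58 and 0.51 under 20L:4D. All 5 groups overlapped for this probe.

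**Figure D1:**
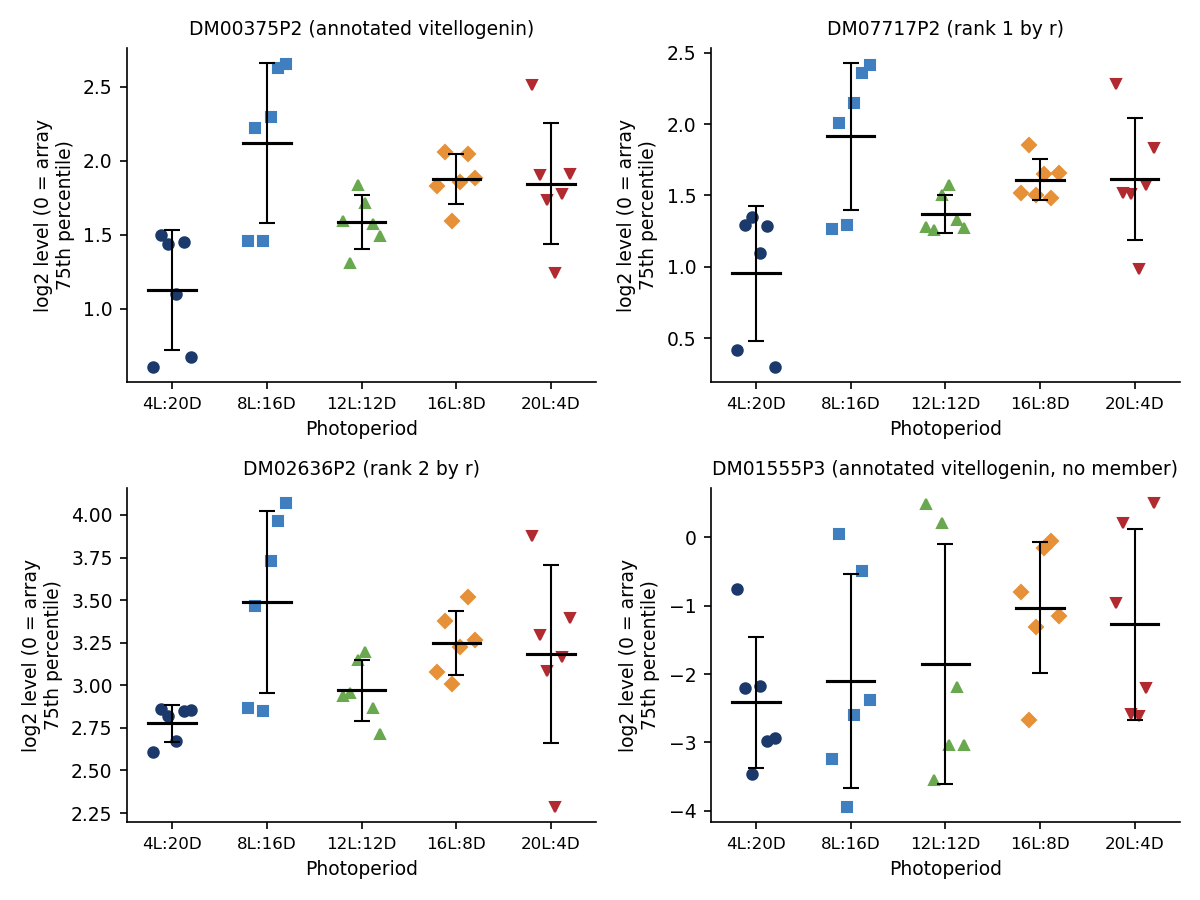
Log2 level in each animal (0 is the 75th percentile of the array) of DM00375P2, of DM07717P2 and DM02636P2, the 2 transcripts with the highest r with it, and of DM01555P3, by photoperiod from the shortest to the longest day. Symbols are animals (6 per photoperiod), horizontal lines are means, bars are SD, and each panel has its own vertical scale. For DM00375P2 and DM07717P2 all 4L:20D animals lie below all 16L:8D animals, whereas DM01555P3 covers -3.95 to 0.51 with all photoperiods overlapping. The share of all probes with 4L:20D and 16L:8D apart was not counted.

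Of the 100 transcripts, 4 are in the study's annotated list of 953 probes, and 0 of these 4 has a functional name. Of all 8835 probes well above background on every array, 577 are in that list. The paper describes its listed targets as those called against the control photoperiod in pairwise tests of either trial. The list is therefore not an annotation of the whole array, and it rests partly on the arrays used here. DM07717P2, DM11650P2 and DM11374P2 are listed as hypothetical proteins and DM08481P1 as without a significant match. No name was found for the other 96, and a search of the reference gene table for the 14338 target names gave 0 matches. The roles of the 100 transcripts are therefore not known from these sources. The 13 keyword lists were drawn from these called probes, so they do not hold all array probes of a function. In each of the 13, 0 probes were among the 100. The 96 without a name could not be in any list, so these counts do not show which functions are absent from the 100.

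Of the egg list, 3 probes were well above background throughout, and none of them followed DM00375P2 closely. Vitelline membrane outer layer protein 1 (DM06044P1), named for the coat of the egg, had an r of 0.22, a second probe of that family (DM11500P2) had -0.54, and DM01555P3 had 0.32. The 8 cuticle and chitin probes divided evenly, 4 with a positive and 4 with a negative r, from -0.40 for DM03120P2 to 0.44 for a cuticular protein (DM05769P2). The 3 histone probes had r between -0.25 and -0.11. For digestion, 2 of 5 probes had a positive r, and for lipid transport 0 of 3, the lowest being -0.50 for a fatty acid hydroxylase (DM04328P2). Both lists hold what their keywords matched, such as lipase or fatty acid, and the functions of these probes were not checked. Of the keyword lists for housekeeping functions, translation had 6 positive and 11 negative r (median -0.19), the proteasome 5 and 13 (median -0.16) and splicing 1 and 12 (median -0.25). The keywords for translation also took in a transcription initiation factor TFIID subunit (DM03747P3) and a U5 small nuclear ribonucleoprotein component (DM03445P2), which is in the splicing list too, both with a negative r. Through the word ribonucleoprotein, those for splicing took in H/ACA complex subunits, DM04512P3 at -0.27 and DM01407P1 at 0.05. The latter was the only positive r of that list and is not named as a splicing factor. Of the fat body and blood list, 1 of 3 probes had a positive r, and of the oxygen and iron list 0 probes were well above background throughout. Over all 576 listed probes that were well above background everywhere, apart from DM00375P2, 251 had a positive and 325 a negative r, with a median of -0.10. Since the study listed probes called for photoperiod, these counts describe that selection and not the array as a whole.

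Listed probes of several kinds came nearer to the limit without passing it. A probe similar to ribosomal protein S5 (DM00119P1), a part of the small ribosomal subunit, had an r of 0.51, and a patatin phospholipase (DM07337P1) had 0.42. These were the highest of the translation and digestion lists, in which 11 of 17 and 3 of 5 probes had a negative r. The keywords for muscle took in 2 probes. DM04779P1, annotated as a non-muscle-like myosin heavy chain, had an r of 0.32, and DM06174P3, a hypothetical protein whose older annotation is similar to troponin I, had 0.55. Neither annotation is a firm marker of muscle. A homeotic protein (DM00100P3), of the class that gives body segments their identity, had an r of 0.59. Of the 3 probes matched by the keywords for embryo patterning, only this 1 was well above background on every array. In whole animals, fewer cells of a type and less RNA per cell cannot be told apart. The mean level of these 2 myosin- and troponin-like probes had an r of 0.67 with the mean deviation of the 100 transcripts. It ranged over 2.89 to 3.85 under 4L:20D, 3.20 to 4.05 under 8L:16D, 3.26 to 3.72 under 12L:12D, 3.56 to 4.21 under 16L:8D and 3.03 to 3.81 under 20L:4D. The homeotic probe had an r of 0.65 with the same mean, and the mean level of the 2 rhodopsin-type receptor probes of the eye list had -0.08. All these probes were well above background on every array, and the part of any tissue in the result was not tested.

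The 100 transcripts followed each other about as closely as they followed DM00375P2. The median r over their 4950 pairs was 0.66, with 0.43 and 0.84 as the 5th and 95th percentiles. Each was chosen for its r with the same probe over the same animals, which favours a high r between them. These values are therefore a description too. Their SD between animals of a photoperiod had a median of 0.36, close to the 0.36 of all 8835 probes, and ran from 0.15 for DM09623P2 to 1.11 for DM07028P2. The SD of DM00375P2, 0.37, lay close to their median. The slope on DM00375P2, which is the r times the ratio of the SDs, had a median of 0.68, and 12 of 100 had a slope over 1. The steepest were DM07028P2 at 1.98, DM11650P2 at 1.88 and DM08794P1 at 1.73, and the flattest were DM09623P2 at 0.28, DM12897P1 at 0.34 and DM04456P4 at 0.37.

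Spots of the 100 were mostly dim. The mean log2 level of a transcript ranged from -3.84 to 10.08 with a median of -1.80, and 47 of the 100 were under -2, as were 29.7% of all 8835 probes. At the other end, 3 of the 14 probes with a level over 9 were among the 100. Spot brightness depends on the probe as well as the transcript, so it gives no order of transcript abundance.

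The 100 followed a lesser axis of the variation between animals. Component 1 of the deviations from the photoperiod means held 31.9% of the variance, component 2 held 24.6% and component 3 held 10.5%. The mean deviation of the 100 transcripts had an r of 0.91 in size with component 3, against 0.22 with component 2 and 0.08 with component 1. The 100 were among the probes that gave the components. DM00375P2 alone had 0.68 with component 3, 0.28 with component 2 and 0.08 with component 1. DM01555P3 instead went with component 2, at 0.73 in size, and had 0.06 with component 3.

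The shared deviation was widest in a few animals. In 20L:4D 1A, all 100 transcripts lay above their photoperiod mean, by 0.82 on average, and in 20L:4D 2B, 0 of 100 did, with an average of -0.57. In all, 3 animals had at least 95 of the 100 transcripts above the photoperiod mean (20L:4D 1A, 4L:20D 1B and 8L:16D 2B), and 5 had at most 5 above it (4L:20D 1A and 3B, 8L:16D 1A and 2A, and 20L:4D 2B). The other 22 lay between. In 25 of the 30 animals the mean of the 100 fell on the same side as DM00375P2, which the choice of the 100 favours. The deviation of DM00375P2 was 0.67 in 20L:4D 1A and -0.61 in 20L:4D 2B.

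Animals of the same chamber often lay apart. Both animals lay on the same side of the photoperiod mean in 4 of 15 chambers for the mean of the 100 and in 7 of 15 for DM00375P2. The gap between the 2 animals of a chamber had a median of 0.32 on the log2 scale for the mean of the 100, and the widest, 0.96, was in chamber 1 of 20L:4D. Animal B lay above animal A in 10 of the 15 chambers for the mean of the 100, and in 7 of 15 for DM00375P2.

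**Figure D2:**
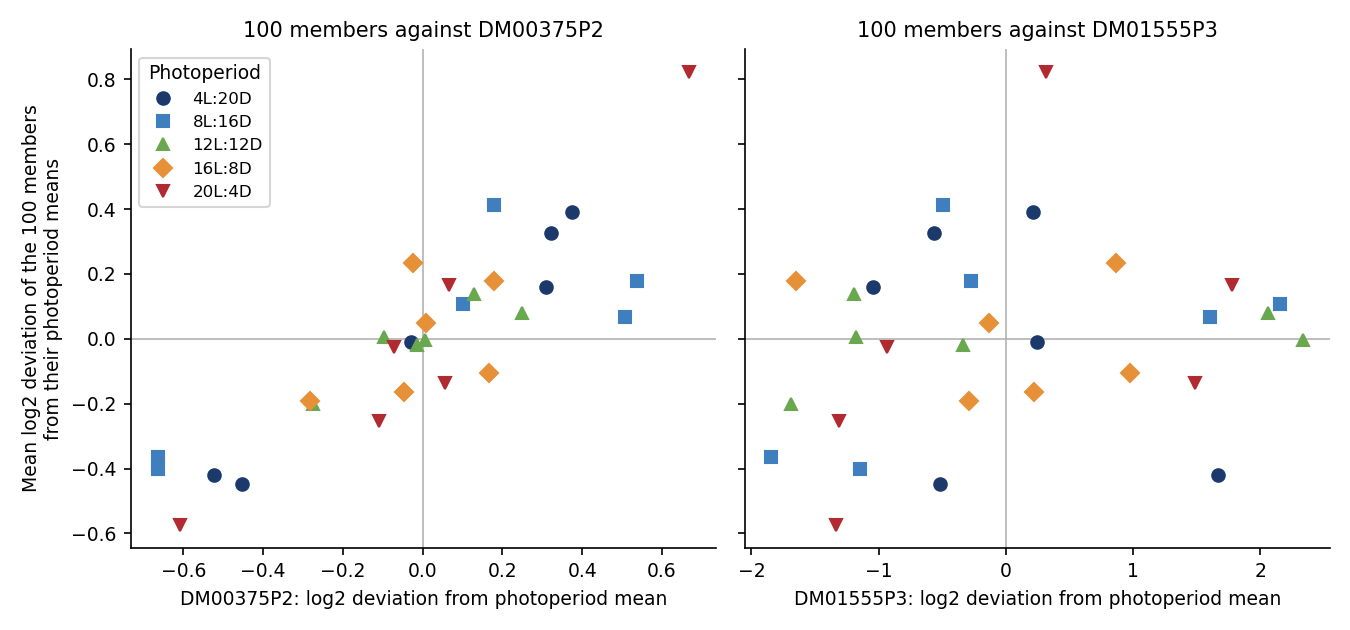
Mean log2 deviation of the 100 transcripts from their photoperiod means in each of the 30 animals (vertical axis) against the log2 deviation of DM00375P2 (left) and of DM01555P3 (right); colours and symbols are photoperiods. The left panel shows what the choice of the 100 fixed, with 20L:4D 1A at 0.67 and 0.82 and 20L:4D 2B at -0.61 and -0.57 as its ends, and the right panel shows animals with DM01555P3 more than 1 above its mean on both sides of 0 for the 100.

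The relation was not equally tight in every photoperiod. Within 4L:20D the median r of the 100 with DM00375P2 was 0.82, within 8L:16D 0.72 and within 20L:4D 0.89, and all 100 had a positive r in each of these. Within 12L:12D the median was 0.41 with 81 positive, and within 16L:8D it was 0.29 with 82 positive. DM00375P2 itself varied least in those photoperiods, with an SD of 0.18 under 12L:12D and 0.17 under 16L:8D. Its SD was 0.40 under 4L:20D, 0.54 under 8L:16D and 0.41 under 20L:4D. Each of these r rests on 6 animals, and all 30 had a part in choosing the 100, so the difference between photoperiods was not tested.

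**Figure D3:**
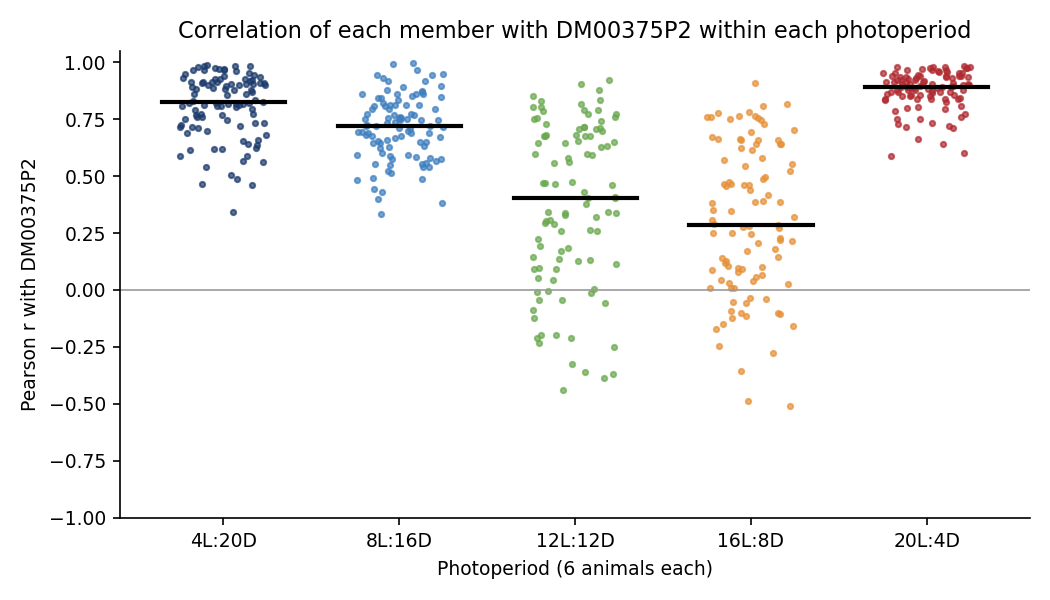
Pearson r of each of the 100 transcripts with DM00375P2 over the 6 animals of each photoperiod, from the shortest to the longest day; points are transcripts and lines are medians. Under 12L:12D and 16L:8D, 19 and 18 transcripts fall at or below 0, and the medians are 0.41 and 0.29, while all points of the other 3 photoperiods are above 0.

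Array signal also varied between animals, and it is given beside these values. The 75th percentile of the signal lay between 359 and 643 intensity units and the share of probes well above background from 70.1% to 90.1%. With photoperiod means removed, DM00375P2 had a Pearson r of -0.35 with the log2 75th percentile (permutation within photoperiods, two-sided, p = 0.14, adjusted p = 0.158 over 2 relations) and a Spearman rho of -0.54 (p = 0.0235, adjusted p = 0.047). Without the 2 arrays farthest from the median r was -0.24, and with slide effects also removed it was -0.25. The mean of the 100 transcripts had an r of -0.50 with the 75th percentile. All levels had that same percentile subtracted, which by itself favours a negative r. The permutation does not allow for this, so its p-values for the 75th percentile do not measure a separate link with array signal. With the share of probes well above background, DM00375P2 had r = 0.26 (p = 0.158, adjusted p = 0.158) and rho = 0.17 (p = 0.446, adjusted p = 0.446), and r was 0.27 without the 2 farthest arrays and 0.46 with slide effects also removed. When the 75th percentile was regressed out as well, a choice made after seeing the data, 73 of the 100 transcripts were chosen again.

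Membership depended on how the values were made. Of the 100, 97 were chosen again from the deposited log2 values, 76 after scaling to the array median, 68 after quantile normalisation and 40 after normexp background correction with quantile normalisation. With slide effects removed along with photoperiod means 52 were kept, and with chamber means removed 51. Without 8L:16D chamber 3 or 16L:8D chamber 3, 61 were kept, and without the array of 20L:4D 1A, 86.

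The photoperiod means had been subtracted before the choice, so differences between photoperiods were not used to rank the probes. The choice of DM00375P2 itself was not free of them, since the paper lists its target for a photoperiod effect in the trial used here. The 100 were chosen to follow that probe, and how far their changes with photoperiod stem from this was not tested. Differences between photoperiods were tested with limma over all 14336 probes fitted. At an adjusted p under 0.05, 0 of the 100 transcripts changed with photoperiod, as did 0.0698% of all probes. At an unadjusted p under 0.05 the count was 20 (11.3% of all probes), and at under 0.01 it was 6 (2.23%). DM00375P2 itself had an unadjusted p of 0.00183 and an adjusted p of 0.356. Because the 100 were chosen to vary together between animals, a difference in a few animals moves many of them at once, and their counts are not separate pieces of evidence.

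Set against 16L:8D, almost all of the 100 transcripts had values below 0 under 4L:20D, none past the adjusted threshold. At an adjusted p under 0.05, 0 of the 100 were lower (0.0488% of all probes) and 0 were higher (0.00698%). The median log2 change of the 100 was -0.41, against -0.05 over all probes, and 99 of the 100 were below 0, as were 55.8% of all probes, and 1 was above it (44.2%). At an unadjusted p under 0.05, 44 were lower (6.14% of all probes) and 0 higher (2.71%). That count was 23 without 16L:8D chamber 2 and 26 without 16L:8D chamber 1, and it lay between 23 and 55 over the alternatives. The log2 change was -0.75 ± 0.22 (SE, n = 6 each; limma, adjusted p = 0.560) for DM00375P2, -0.65 ± 0.22 (limma, adjusted p = 0.560) for DM07717P2 and -0.47 ± 0.21 (limma, adjusted p = 0.560) for DM02636P2. The largest change was that of DM07028P2, whose level was 3.62, 4.79 and 6.55 as lowest, median and highest under 4L:20D and 5.04, 6.11 and 7.71 under 16L:8D, with overlap between the groups. Its change was -1.34 ± 0.54 (limma, adjusted p = 0.560). The only value above 0 was that of DM09299P1, at 0.00 ± 0.37. By the rule of the study's methods, which asks for a change of 1.5-fold with unadjusted p-values below 0.01 for photoperiod and below 0.05 for the pair, 1 of the 100 was lower under 4L:20D, namely DM07717P2 (0.398% of all probes), and 0 higher (0.181%). DM00375P2, not counted in the 100, also met that rule (limma, unadjusted p = 0.00183 for photoperiod and 0.00212 for the pair). The paper instead reports vitellogenin fused with superoxide dismutase as increased under short days. In its discussion it names for this a target of the later trial, which was not used here. The call of DM07717P2 was lost with scaling to the array median, with slide as a block, on chamber means, and without chamber 3 of 4L:20D or of 8L:16D, and over the chambers left out the rule called 0 to 7 of the 100.

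Under 8L:16D the 100 did not move one way. At an adjusted p under 0.05, 0 were lower (0.014% of all probes) and 0 higher (0.0%). The median log2 change was -0.22, against 0.02 over all probes, with 74 lower (48.1% of all probes) and 26 higher (51.9%). At an unadjusted p under 0.05, 10 were lower (7.5% of all probes) and 4 higher (6.65%), shares close to those of all probes. DM00375P2 and its nearest followers were among those above 0: DM00375P2 had a change of 0.24 ± 0.22 (limma, adjusted p = 0.616), DM07717P2 of 0.30 ± 0.22 and DM02636P2 of 0.24 ± 0.21. The highest was DM01970P1, with 2.19, 2.59 and 2.86 as lowest, median and highest under 8L:16D and 1.60, 1.97 and 2.21 under 16L:8D. These groups overlapped only at their ends, and the change was 0.58 ± 0.16 (limma, adjusted p = 0.245). DM02450P3 and DM02905P1 had 0.44 ± 0.16 and 0.41 ± 0.16. The lowest was again DM07028P2, at -1.01 ± 0.54 (limma, adjusted p = 0.393), and DM11374P2 had -0.98 ± 0.32 (limma, adjusted p = 0.264). By the rule of the methods, 0 were lower (0.419% of all probes) and 0 higher (0.614%). The median level of the 26 above 0 was -0.41 and that of the 74 below 0 was -2.11.

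For 12L:12D, 94 of the 100 were below 0, as were 58.2% of all probes, and 6 were above it (41.8%), with a median change of -0.30 against -0.06 over all probes. At an adjusted p under 0.05, 0 were lower (0.0% of all probes) and 0 higher (0.0%), and at an unadjusted p under 0.05, 21 were lower (4.95%) and 0 higher (0.97%). With slide as a block that count of 21 was 1, and without 12L:12D chamber 1 it was 3. DM00375P2 had a change of -0.29 ± 0.22 (limma, adjusted p = 0.937). DM07028P2 had the lowest value, -1.26 ± 0.54 (limma, adjusted p = 0.777), with levels of 4.42, 4.93 and 5.49 under 12L:12D against 5.04, 6.11 and 7.71 under 16L:8D, and DM07755P3 the highest, at 0.20. By the rule of the methods, 0 were lower (0.223% of all probes) and 0 higher (0.112%).

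The changes under the longest day lay around 0. Under 20L:4D the median change was -0.06, against -0.01 over all probes, with 66 lower (51.8% of all probes) and 34 higher (48.2%), and 0 passed an adjusted p under 0.05 (0.0% of all probes in either direction). At an unadjusted p under 0.05, 3 were lower (3.77% of all probes) and 1 higher (1.51%). DM00375P2 had a change of -0.03 ± 0.22 (limma, adjusted p = 0.995). DM02620P4 had the lowest value, -0.48 ± 0.20 (limma, adjusted p = 0.935). The highest was that of DM11650P2, with -0.29, 0.32 and 2.57 as lowest, median and highest under 20L:4D and -0.92, -0.32 and 0.42 under 16L:8D, and its change was 0.84 ± 0.52 (limma, adjusted p = 0.960). The highest level of this transcript, 2.57, was that of 20L:4D 1A, the animal in which all 100 transcripts were above their mean. By the rule of the methods, 0 of the 100 were called under 20L:4D, lower (0.384% of all probes) or higher (0.0767%).

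**Figure D4:**
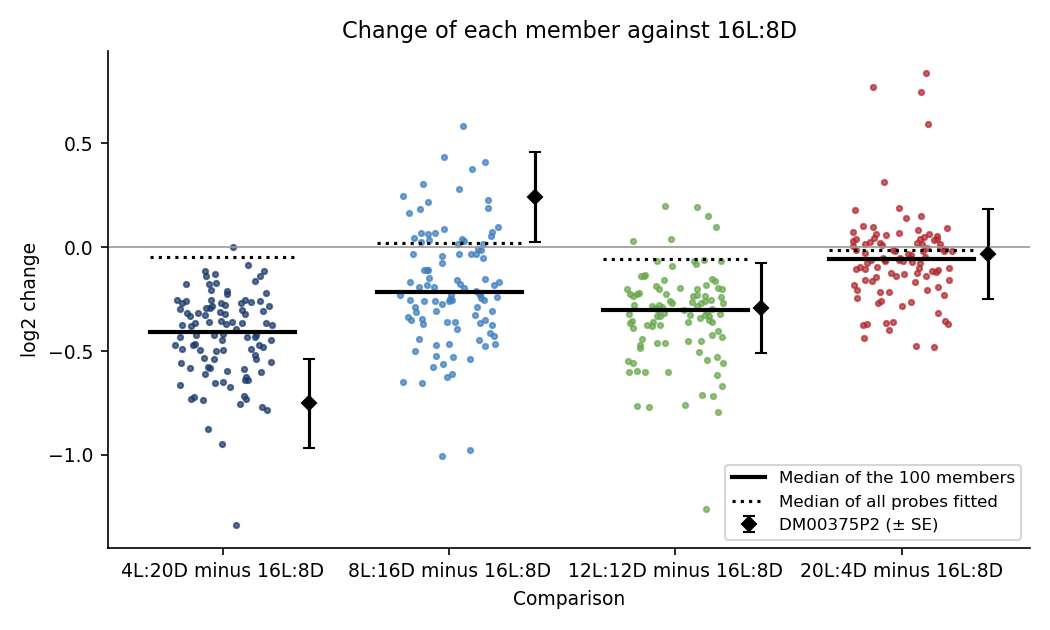
Log2 change of each of the 100 transcripts against 16L:8D for the other 4 photoperiods, from the shortest to the longest day. Points are transcripts, solid lines their medians (-0.41, -0.22, -0.30 and -0.06), dotted lines the medians of all 14336 probes, and diamonds DM00375P2 with its SE; 0 of the 100 passed an adjusted p under 0.05 in any of the 4 comparisons, which share the 16L:8D animals.

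Over the 5 day lengths in order, the 100 had almost only positive slopes on the hours of light, none of them past the adjusted threshold. In a contrast linear in the length of the light phase, 99 of the 100 had a positive value, as did 52.7% of all probes, and 1 a negative value (47.3%), with a median of 0.0226 per hour on the log2 scale. At an adjusted p under 0.05, 0 were higher (0.0558% of all probes) and 0 lower (0.0279%), and at an unadjusted p under 0.05, 44 were higher (7.95%) and 0 lower (6.42%). The count of 44 was 11 without 20L:4D chamber 1, 16 without the array of 20L:4D 1A alone and 28 with slide as a block. DM04456P4 had the smallest adjusted p, 0.0653 (limma), at 0.0357 ± 0.0075 per hour. Its lowest, median and highest levels were 0.36, 0.55 and 0.82 under 4L:20D, 0.43, 0.60 and 0.91 under 8L:16D, 0.80, 0.88 and 1.08 under 12L:12D, 0.88, 1.20 and 1.32 under 16L:8D, and 0.67, 1.00 and 1.55 under 20L:4D. All 4L:20D animals lay below all 16L:8D animals for this transcript, which was named partly for its small photoperiod p. It passed the threshold in 4 of the 27 alternatives. DM00375P2 had 0.0300 ± 0.0121 per hour (limma, adjusted p = 0.285).

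With the 2 longest days, 16L:8D and 20L:4D, set together against the 3 shorter ones, 97 of the 100 were higher in the longer days, as were 54.9% of all probes, with a median difference of 0.28 against 0.03 over all probes. At an adjusted p under 0.05, 0 were higher (0.0488% of all probes) and 0 lower (0.014%). At an unadjusted p under 0.05, 50 were higher (8.12%) and 0 lower (5.89%), and the count of 50 was 16 with slide as a block, 21 without 20L:4D chamber 1 and 29 without the array of 20L:4D 1A alone. The difference was largest for DM07028P2, at 0.98, and below 0 for 3 of the 100 (45.1% of all probes), the lowest being DM01970P1 at -0.05.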

How the data were processed

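Each animal gave 80 ng of total RNA, per the labels, for a Cy3-labelled target on an Agilent array with 15744 spots and 1 colour. The deposited intensity values come from Agilent Feature Extraction, whose version is 10.7.3.1 in the file headers and 9.5.1 in the submitters' processing notes. They are processed signals with the background subtracted and without scaling across arrays. Deposited log2 values, scaled by the authors to the 75th percentile, served as an alternative.

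The log2 processed signal less the array's 75th percentile over the 15208 non-control spots was used, with 222 outlier spots (0.0487%) set to missing, duplicates averaged and 0 spots saturated. Arrays lay on 9 slides, and no 2 arrays correlated above 0.991. The number of arrays limits the precision, and the 2 animals of a chamber share that chamber.

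Correlations used Python 3.11.15 with numpy 2.4.6, and 100000 permutations within photoperiods. limma 3.58.1 in R 4.3.3 (lmFit, eBayes) was fitted to all arrays with photoperiod, letter and their interaction, which the study's methods use, with Benjamini-Hochberg adjustment over 14336 probes. Scripts were tested on simulated data. The transcripts named were DM00375P2, the 10 with the highest r, the 5 with the smallest photoperiod p, the extremes of each comparison, the 3 steepest and 3 flattest slopes, 3 on each side of the limit, those the study lists and the other vitellogenin probe. The transcripts and keyword lists were chosen with earlier results of these data known. Probe names and sequences are those of the study's table. The alternatives were other background corrections and scalings (normexp with offset 50), filters, models and blocks, and each chamber left out.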

Additional observations from a re-analysis of the deposited data

Results flagged for a closer look

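Of 170 groups of 6 animals examined (31 named probes and 3 measures of the arrays or of the 100 transcripts in 5 photoperiods), 9 had 1 animal far from the other 5, and chance alone sets an animal apart in about 1 in 20 groups. Most of the named probes were chosen to vary together, so the groups are not independent and that rate is only a rough guide. In 5 of the 9, which are not separate events, the animal was 20L:4D 1A, always the highest. Its level was -2.35 for DM06477P1, with the other 5 at -3.92 to -3.49, and -2.02 for DM13408P2, with the others at -3.08 to -2.76. It was 3.24 for DM09299P1, with the others at 0.39 to 1.15, and 3.21 for DM08481P1, with the others at 1.74 to 2.11. For DM09854P1, just outside the limit of r, it was 4.00, with the others at -0.89 to 0.25. Elsewhere, DM02450P3 was low in 4L:20D 3B at 0.77 (others 1.67 to 2.18) and DM09623P2 high in 8L:16D 3B at -0.48 (others -1.03 to -0.83). The 75th percentile of 4L:20D 1A was 362 intensity units (others 481 to 537), and 70.1% of probes were well above background on the array of 16L:8D 3A (others 79.9% to 81.4%).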

How the results depend on the processing

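In all 27 alternatives to the model, the scaling, the filter or the chambers used, 0 of the 100 transcripts passed an adjusted p under 0.05 for the photoperiod effect or in any comparison with 16L:8D. With the replicate block the count was also 0; chambers with the same number did not deviate together (mean r of -0.037 over 30 pairs, against 0.018 over 60 other pairs). In the contrast linear in the light phase the count was 1 (DM04456P4) with scaling to the array median, without the letter and with chamber as a random block, and 0 to 1 over the chambers left out; for long against short days it was 0 to 2, with DM04456P4 and DM14580P1 called without 20L:4D chamber 2. By the rule of the methods, 1 transcript was called for 4L:20D, 2 with quantile normalisation, 0 with scaling to the array median or on chamber means, 3 without the array of 20L:4D 1A (chosen after seeing the data), and 0 to 7 over the chambers left out, with 7 without 20L:4D chamber 2. For 8L:16D it called 1 with quantile normalisation, with the deposited log2 values or with slide as a block, and 0 to 3 over the chambers left out; for 12L:12D 0 to 3; and for 20L:4D 0 to 1, with 1 without the array of 20L:4D 1A. Of the 100 transcripts, 48 were chosen again with no means removed, 52 with slide effects and 51 with chamber means removed, 40 with normexp, and 61 to 92 over the chambers left out (64 without 4L:20D chamber 1). The median change of the 100 stayed below 0 in all 27 alternatives for 4L:20D (-0.45 to -0.22), 8L:16D (-0.27 to -0.10) and 12L:12D (-0.37 to -0.19), and ranged from -0.21 to 0.13 for 20L:4D. The cause of these shifts was not tested. Dim spots limit the 47 transcripts with a level under -2.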
